A study of Mus musculus with 2 samples.

Results

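The genes described here were 10 members of the Wnt pathway among the 19320 features of the table. They were the ligands Wnt4, Wnt5a, Wnt7b, Wnt10a and Wnt2, the agonist Rspo3, the secreted antagonists Sfrp1 and Wif1, the related secreted protein Dkk3, and Wls, which carries Wnt proteins to the cell surface. They were chosen by name, with earlier results of these data known, and all 10 were in the table. Their RNA was followed through epithelial and stromal cell classes and, within epithelium, by the level of the reporter EGFP. The cells came from prostates of R26 mTmG/hAR:Osr1 Cre/+ mice. In these mice Cre, made from the Osr1 locus, switches on a human androgen receptor transgene (hARtg, read here as the feature ARQ) together with a membrane green fluorescent protein (mGFP, read here as EGFP), so both mark the Osr1 lineage. Droplet-based 3′ single-cell RNA sequencing was done on 1 library from prostatic intraepithelial neoplasia (PIN) and 1 library from prostatic adenocarcinoma (PCa) of older mice. Both groups carried transgene, reporter and Cre, and no prostate without the transgene was analysed here.

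Wnt proteins are lipid-bound signals that act over short distances. On the receiving cell they engage a Frizzled receptor and an Lrp co-receptor, which stabilises β-catenin and turns on targets such as Axin2, or they act by routes that do not need β-catenin. R-spondins strengthen the signal by keeping the E3 ligases Rnf43 and Znrf3 from removing the receptors, whereas Wif1 and the Sfrp proteins bind Wnts outside the cell.

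Cell barcodes carried 1 of 2 endings, called set 1 and set 2 here, and no label tied an ending to PIN or PCa. Values are therefore given per set, and set 2 against set 1 compares 2 libraries, not the lesions. Set 1 held 6332 cells with a median of 17235 UMIs (unique molecular identifiers, each marking 1 captured RNA molecule), and set 2 held 9410 cells with a median of 14824.5 UMIs. The sets shared 67 barcodes. After 155 and 175 called doublets were left out, 1351 of 15412 cells passed no marker gate. The gates gave 1584 and 299 basal cells, 1684 and 7377 luminal cells, 1022 and 155 proximal or urethral luminal cells, 153 and 255 fibroblasts and 1016 and 256 leukocytes in set 1 and set 2. Smooth muscle or mural cells (12 and 40) and endothelial cells (40 and 166) were few. Pbsn, the probasin gene of secretory luminal cells, stood at 5366 and 353 CPM in luminal cells and Col1a1, a collagen gene, at 820 and 1541 CPM in fibroblasts. Levels are CPM (UMIs of a gene per 1000000 UMIs of the class) with exact Poisson 95% intervals. Gene positions are those of GRCm38 (mm10). There were no replicates, so every interval covers counting error only and no p-value is given.

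For 4 of the 10 members (Wnt4, Wnt2, Wif1 and Wls) a start site was in the RefSeq promoter table of build GRCm38.p6, and the 250 bases before it were searched. The windows of Wif1 and Wnt2 are shown because both genes were high in fibroblasts of both sets. The Wif1 window was chr10:121033754-121034003 on the plus strand with a GC content of 62.8%, and the Wnt2 window was chr6:18030446-18030695 on the minus strand, before a start site inside the annotated span of the gene, with 63.6%. The letters CTTTGAT, a core bound by TCF/LEF factors, and AGAACA, an androgen receptor half-site, were searched on both strands. None of the 4 windows held either motif, which were in 3.21% and 16.1% of 32851 promoter windows of the table. This says only that these letters were not in these windows.
Wif1: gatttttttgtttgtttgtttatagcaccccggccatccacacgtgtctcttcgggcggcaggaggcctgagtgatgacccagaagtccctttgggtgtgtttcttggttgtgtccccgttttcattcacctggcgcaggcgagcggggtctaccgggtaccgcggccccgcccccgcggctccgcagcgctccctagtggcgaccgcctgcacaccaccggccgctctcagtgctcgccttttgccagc
Wnt2: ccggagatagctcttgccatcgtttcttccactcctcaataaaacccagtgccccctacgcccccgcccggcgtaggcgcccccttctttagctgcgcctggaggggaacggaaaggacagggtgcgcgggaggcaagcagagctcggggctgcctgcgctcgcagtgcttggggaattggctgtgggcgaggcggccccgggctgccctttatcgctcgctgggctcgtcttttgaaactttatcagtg

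Most members were highest in the stroma. Among gated classes of 50 or more cells, 7 of the 10 members were highest in fibroblasts in set 1 and 7 of 10 in set 2. Of all features with 20 or more UMIs over those classes, 22.6% of 14911 in set 1 and 18.0% of 15148 in set 2 were highest in fibroblasts. Wnt4 and Wnt7b were highest in proximal or urethral luminal cells and Wnt10a in basal cells in both sets. The intervals of the leading and the next class overlapped for Wls in both sets, and for Wnt5a and Wnt10a in set 2, so the order of those classes is not resolved by the counts.

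**Figure D1:**
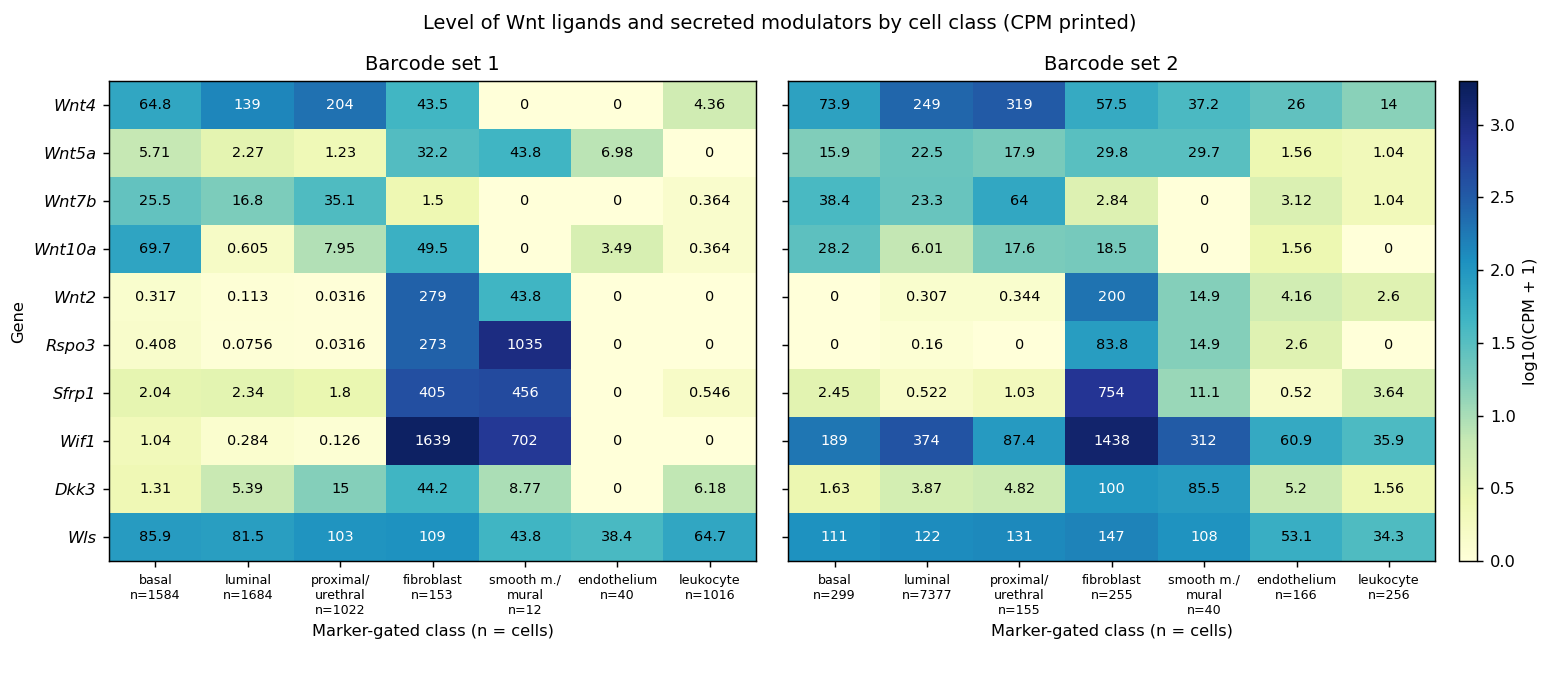
Level of each member (rows) in each marker-gated class (columns, with the number of cells) of barcode set 1 and barcode set 2. Colour is log10(CPM + 1) and the printed values are CPM. Wnt2, Rspo3 and Sfrp1 stand out in fibroblasts and stay under 4 CPM in epithelium, while Wif1 in luminal cells is 0.284 CPM in set 1 and 374 CPM in set 2.

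Wnt2, a ligand of mesenchymal cells (chr6:17985474-18032772), was a fibroblast gene. Its level in fibroblasts was 279 CPM (252 to 309) in set 1 and 200 CPM (177 to 224) in set 2. In the 3 epithelial classes it ranged from 0 to 0.344 CPM in both sets. After each cell was thinned to 3000 UMIs, 33.3% (25.6 to 41.8) and 35.2% (28.8 to 42.0) of fibroblasts had a Wnt2 UMI, so detection differed by less than counting error between the sets.

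Rspo3, the R-spondin that potentiates Wnt signals (chr10:29453106-29535867), was likewise stromal. Fibroblasts held 273 CPM (246 to 303) in set 1 and 83.8 CPM (69.4 to 100.4) in set 2, and the epithelial classes at most 0.408 CPM. The 12 smooth muscle or mural cells of set 1 held 118 Rspo3 UMIs, a level of 1035 CPM (857 to 1239), against 14.9 CPM (4.05 to 38.1) in the 40 of set 2. Rspo3 was thus concentrated in mesenchymal cells of set 1, with a thinned share of fibroblasts of 40.4% (32.2 to 49.0) against 19.9% (14.8 to 25.9) in set 2.

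Sfrp1, a decoy that binds Wnts through a Frizzled-like domain (chr8:23411383-23449632), reached 405 CPM (371 to 440) in fibroblasts of set 1 and 754 CPM (710 to 801) in those of set 2. Epithelial classes lay between 0.522 and 2.45 CPM. The thinned share of Sfrp1-positive fibroblasts was 41.8% and 41.2%, so the higher level of set 2 came with a like share of positive cells. Dkk3, a secreted glycoprotein of the Dickkopf family (chr7:112116019-112159482), stood at 44.2 CPM (33.7 to 57.0) and 100.2 CPM (84.3 to 118) in fibroblasts and at 85.5 CPM (54.2 to 128) in mural cells of set 2. In epithelium Dkk3 was highest in proximal or urethral luminal cells, at 15.02 CPM (13.7 to 16.4) in set 1 and 4.82 CPM (2.63 to 8.09) in set 2.

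A leukocyte signal of Dkk3 in set 1, 6.18 CPM (4.28 to 8.64), was gathered in few cells. Of its 34 UMIs, 26 lay in the 57 leukocyte-gated cells of cluster 21, a cluster without a name that was led by genes such as Il7r, Icos and Gpr183, where the Dkk3 level was 115 CPM (74.9 to 168) and 33.3% of cells had a UMI. In the 6 other leukocyte clusters of set 1 it ranged from 0 to 4.18 CPM. This group of cells was picked out after its values were seen.

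Wif1, the secreted Wnt inhibitory factor (chr10:121034004-121100642), was also a fibroblast gene in both sets, at 1639 CPM (1571 to 1710) in fibroblasts of set 1 and 1438 CPM (1376 to 1502) in those of set 2. Thinned shares were 41.1% and 50%, and the thinned UMIs came from a part of the fibroblasts.

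The fibroblast gate held cells of several kinds, and the secreted members split among them. All 153 fibroblast-gated cells of set 1 fell in cluster 14. In set 2 they fell mainly in clusters 1, 21 and 3, with 123, 52 and 65 cells. Cluster 1 carried Wif1 at 3284 CPM, Wnt2 at 325 CPM, Rspo3 at 117 CPM and Sfrp1 at 54.2 CPM. Cluster 21, rich in Col1a1 at 2732 CPM, was the reverse for the antagonists, with Sfrp1 at 2501 CPM and Wif1 at 37.0 CPM. Its Wnt2 was 259 CPM, its Rspo3 21.6 CPM and its Dkk3 207 CPM, the highest of the 3. Cluster 3 had Sfrp1 at 615 CPM, Wif1 at 190 CPM and Rspo3 at 122 CPM but Wnt2 at only 14.6 CPM. This last cluster also held the most epithelial RNA, with Krt18 at 2024 CPM and EGFP at 2240 CPM against 556 and 878 CPM in cluster 1, and the part of that RNA in its values was not tested. Members and other pathway genes were kept out of the clustering features, but other fibroblast genes were not, so the clusters describe the cells and no test was made between them.

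**Figure D2:**
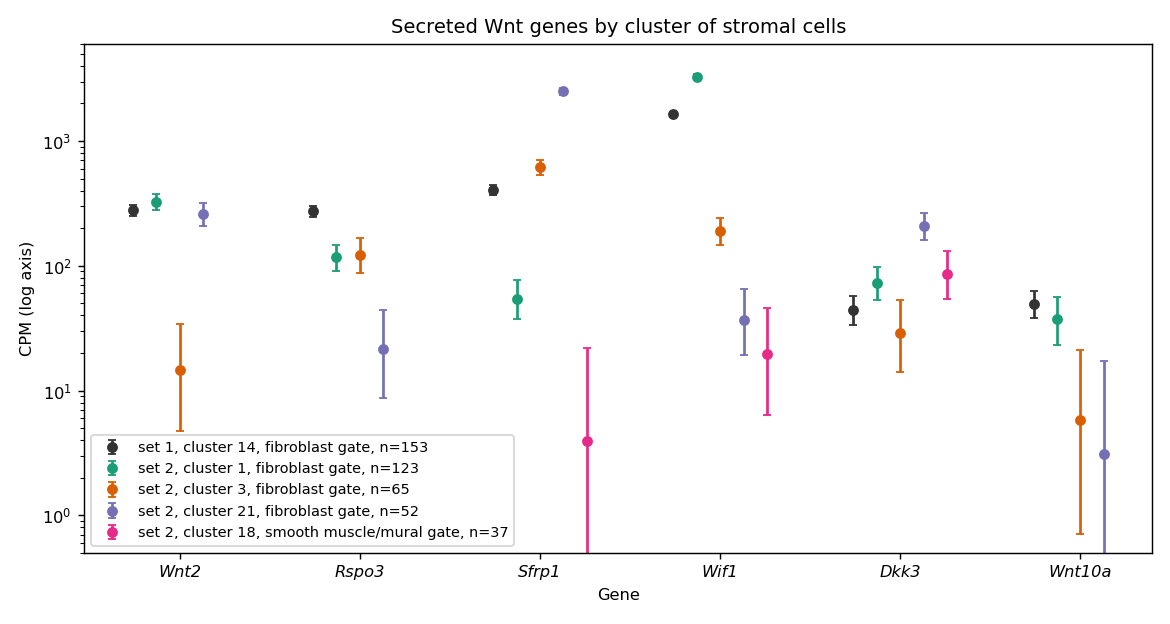
CPM (log axis) of 6 members in the clusters of fibroblast-gated and smooth muscle or mural-gated cells, with exact Poisson 95% intervals. Points at 0 are not drawn, which is so for Wnt2, Rspo3 and Wnt10a in the mural cells. In set 2, Wif1 is 3284 CPM in cluster 1 and 37.0 CPM in cluster 21, while Sfrp1 is 54.2 CPM and 2501 CPM in the same clusters.

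Single fibroblasts gave the same picture by detection. In set 1, 73.5% of the 68 Wif1-positive fibroblasts had a Wnt2 UMI against 27.1% of the 85 without Wif1. In set 2 the shares were 56.8% of 125 and 26.9% of 130. Wif1 and Wnt2 thus tended to be seen in the same cells.

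Wif1 and Sfrp1 were seen apart more often than together. A Wif1 UMI was found in 33.7% of 98 Sfrp1-positive and 63.6% of 55 Sfrp1-negative fibroblasts in set 1, and in 28.5% of 123 and 68.2% of 132 in set 2. In set 1 the cells with Wif1 were deeper (median 9142 against 6262 UMIs), and in set 2 the depths were close (4805 against 4640.5 UMIs). Depth moves with joint detection of Wif1 and Wnt2 in set 1, and its part was not tested. The Wif1 share was lower among Sfrp1-positive cells of set 1 although these were the deeper ones (8507 against 6733 UMIs).

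The epithelium expressed a different set of ligands. Wnt4, a ligand of glandular epithelium (chr4:137277635-137299501), had its levels in the order basal, luminal, and proximal or urethral luminal cells, the last being highest. In set 1 the levels were 64.8 CPM (61.5 to 68.2), 139 CPM (136 to 142) and 204 CPM (199 to 209). In set 2 they were 73.9 CPM (63.5 to 85.4), 249 CPM (246.7 to 251.5) and 319 CPM (299 to 341). None of the neighbouring intervals overlapped in either set. By cluster (20 or more cells of the gate) the 2 luminal classes did overlap. Luminal clusters ran from 32.7 to 209 CPM in set 1 and from 36.7 to 345 CPM in set 2. Proximal or urethral luminal clusters ran from 105 to 282 CPM and from 255 to 384 CPM, with cluster 19 at the 255 CPM of set 2. The order of these 2 classes therefore did not hold for every cluster.

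Thinned shares of Wnt4-positive cells were 13.7% (12.1 to 15.5), 31.2% (28.9 to 33.4) and 39.9% (36.9 to 43.0) in set 1 and 15.6%, 45.7% and 47.4% in set 2. Leukocytes, which should lack Wnt4, had 1.42% and 3.88% at 4.36 and 14.04 CPM. Wnt4 in fibroblasts, 43.5 and 57.5 CPM, was 31.3% (23.8 to 40.5) and 23.1% (18.3 to 28.7) of the luminal level. In the same fibroblasts Krt18, a keratin gene of luminal cells, was at 4.29% and 13.5% of its luminal level. ARQ, the transgene, was at 18.2% (12.3 to 25.9) and 13.7% (12.2 to 15.4), and EGFP at 3.79% and 13.5%. The interval of Wnt4 overlapped that of ARQ in set 1, where ARQ rested on 30 UMIs in fibroblasts. There ARQ was 257 and 243 CPM in basal and proximal or urethral luminal cells against 124 CPM in luminal cells. Shares of the luminal level are therefore not a like measure for each gene. The part of epithelial RNA in the fibroblast values was not tested.

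Wnt7b, a ligand made by epithelia (chr15:85535437-85581821), was epithelial in both sets and under 4 CPM elsewhere. Its levels were 25.5, 16.8 and 35.1 CPM in basal, luminal and proximal or urethral luminal cells of set 1 and 38.4, 23.3 and 64.0 CPM in those of set 2. The class order, with luminal cells lowest, was the same in both sets. Fibroblasts had 1.499 and 2.84 CPM and leukocytes 0.364 and 1.04 CPM.

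Wnt10a, a ligand known from skin appendages and other stratified epithelia (chr1:74792019-74804176), was a basal and fibroblast gene. In set 1 it stood at 69.7 CPM (66.2 to 73.3) in basal cells and 49.5 CPM (38.2 to 62.9) in fibroblasts, against 0.605 CPM in luminal cells. In set 2 the basal level was 28.2 CPM (21.9 to 35.6) and the fibroblast level 18.5 CPM (12.1 to 27.1), while luminal cells had 6.01 CPM. The basal-gated cells of basal cluster 16 of set 2 had 15.98 CPM, and the highest luminal cluster there had 17.95 CPM. The thinned share of basal cells with Wnt10a was 15.4% (13.7 to 17.3) in set 1 and 3.90% (1.96 to 6.87) in set 2. Among the set 1 proximal or urethral luminal cells, the 80 that fell in cluster 10, a cluster without a name whose leading genes included Htra1 and EGFP, had 58.7 CPM of Wnt10a, against 1.70 to 9.31 CPM in the others.

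Wnt5a, the main ligand of β-catenin-independent Wnt signalling (chr14:28504543-28527448), was a fibroblast gene in set 1 and was shared by stroma and luminal cells in set 2. Fibroblasts had 32.2 CPM (23.3 to 43.4) and 29.8 CPM (21.5 to 40.3). Luminal cells had 2.27 CPM (1.88 to 2.71) in set 1 and 22.5 CPM (21.8 to 23.2) in set 2, and the proximal or urethral class 1.23 and 17.9 CPM. The basal class of set 2 had 15.9 CPM. In set 2 the basal-gated cells of basal cluster 16 had only 4.44 CPM. The proximal or urethral luminal cells of cluster 19 had 4.82 CPM. Leukocytes of set 2 had 1.04 CPM from 2 UMIs. The thinned share of luminal cells with Wnt5a was 0.479% (0.207 to 0.942) and 6.03% (5.49 to 6.60), so even in set 2 the ligand was seen in a minority of luminal cells.

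Wls, the carrier that every secreted Wnt needs to leave the cell (chr3:159839650-159938666), was broad. It lay between 81.5 and 109 CPM in the epithelial and fibroblast classes of set 1 and between 111 and 147 CPM in those of set 2. Leukocytes had 64.7 CPM (58.2 to 71.8) and 34.3 CPM (26.6 to 43.7), and endothelium 38.4 CPM (19.2 to 68.7) and 53.1 CPM (43.3 to 64.4). Leukocytes of set 1 thus carried Wls without much of the 5 ligands, whose levels there ran from 0 to 4.36 CPM.

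Among the 10 members Wif1 had the largest fold between the libraries in luminal cells. In set 1, 1684 luminal cells held 15 Wif1 UMIs, a level of 0.284 CPM (0.159 to 0.468), and after thinning none of 1669 cells had one (upper limit 0.221%). In set 2, 7377 luminal cells held 60987 UMIs, a level of 374 CPM (371 to 377), and 47.1% (46.0 to 48.3) of the thinned cells had one. Basal cells had 1.04 and 189 CPM, and proximal or urethral luminal cells 0.126 and 87.4 CPM. A few cells carried these last levels in set 2. The 287 basal-gated cells of basal cluster 16 had 27.1 CPM. Of the 250 Wif1 UMIs in EGFP-high proximal or urethral luminal cells, 8 cells held 79.6%, and 15 cells that fell in luminal cluster 4 had 458 CPM against 21.2 CPM in the 64 cells of proximal or urethral cluster 19. Of the 155 cells in that gate, 61 lay within the margin to another class.

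Cells that should lack Wif1 gave the background for these values. Leukocytes had 35.9 CPM (27.9 to 45.4) in set 2, or 9.59% (7.46 to 12.1) of the luminal level, and 4.31% (2.09 to 7.78) of them had a thinned UMI at a median depth of 7010.5 UMIs. EGFP, ARQ and Krt18 in the same leukocytes were at 6.98%, 5.57% and 5.13% of their luminal levels. Endothelial Wif1, 60.9 CPM, was at 16.3% of the luminal level, with EGFP at 10.2%. Wif1 in luminal cells of set 2 was above that background, and the part of free RNA in its endothelial, basal and proximal or urethral values was not tested.

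The next question was how the members moved between the libraries within a class. A gene was called when its CPM differed by 2-fold or more with at least 20 UMIs over both sides, and genes with that many UMIs are those counted as tested, although no significance test was made. Among luminal cells, 5 of the 10 members were higher in set 2 and 1 lower, where 15.3% and 23.1% of 15136 genes were called higher and lower. The median log2 ratio of set 2 over set 1 was 0.96 for the members and -0.20 for all genes tested.

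The higher members in luminal cells were Wif1, with a log2 ratio of 10.37 (9.64 to 11.20), Wnt5a and Wnt10a, with 3.31 each, and Wnt2 and Rspo3, which rested on 6 and 4 UMIs in set 1 (1.44 and 1.08, Rspo3 turning to -0.45 with doublets kept). In luminal cells of set 2 Wnt2 and Rspo3 were at 0.307 and 0.160 CPM, under their 4.16 and 2.60 CPM in endothelium of that set. Sfrp1 was lower, at 0.522 against 2.34 CPM (log2 ratio -2.17). Wnt4 (0.84), Wls (0.58), Wnt7b (0.47) and Dkk3 (-0.48) moved by less than 2-fold. EGFP, ARQ and the target gene Axin2 were higher in the same cells by log2 ratios of 3.74, 3.62 and 3.12, and Pbsn was lower (353 against 5366 CPM), so the luminal cells of the sets differed in much besides the Wnt genes.

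In proximal or urethral luminal cells 3 of 8 members tested were higher in set 2 and 1 lower, against 9.52% and 8.5% of all genes. Wif1 (log2 ratio 9.44), Wnt5a (3.86) and Wnt10a (1.14) were higher and Dkk3 (-1.64) was lower. In the EGFP-high cells of this class in set 2, 8 cells held 75.5% of the 49 Wnt10a UMIs and 62.0% of the 50 Wnt5a UMIs. The 80 cells of the gate that fell in proximal or urethral cluster 19 had Wnt10a at 5.43 CPM, below the class level of 7.95 CPM in set 1, and Wnt5a at 4.82 CPM. In basal cells 2 of 8 were higher and 1 lower, against 7.57% and 8.65% of genes. Wnt2 and Rspo3 had too few UMIs to be tested in either class. Basal Wif1 (log2 ratio 7.504) and Wnt5a (1.48) were higher, and Wnt10a (-1.31) was lower. With classes from clusters the basal ratio of Wnt5a was -0.13.

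Fibroblasts moved otherwise. Of 9 members tested, 1 was higher and 2 were lower in set 2, against 7.11% and 5.7% of genes, and Wnt7b had too few UMIs. Dkk3 was higher (log2 ratio 1.18, 0.73 to 1.64), and Rspo3 (-1.71, -2.02 to -1.40) and Wnt10a (-1.42, -2.14 to -0.75) were lower. Wif1 (-0.19) and Wnt5a (-0.11), called higher in every gated epithelial class, lay near 0 in fibroblasts, with intervals of -0.28 to -0.10 and -0.76 to 0.54.

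In leukocytes, read as background, 2 of 4 members tested were higher in set 2 and 1 was lower, against 12.5% and 34.9% of genes. The gate held different cells in the sets, with leading genes such as Ccl5, Gzma and Nkg7 in set 1 and C1qa, C1qb and Lyz2 in set 2. Their median depths were 3835 and 7010.5 UMIs. Wif1 was at least 65.8-fold higher, set against a floor of 3 UMIs in set 1, and Wnt4 had a log2 ratio of 1.69. EGFP, which leukocytes also should lack, had a log2 ratio of 3.73 there.

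Within epithelium the members were compared by EGFP level. A cell was EGFP-high when its EGFP per 10000 UMIs was above the 95th percentile of the leukocyte-gated cells of its set, which was 3.11 in set 1 and 14.2 in set 2. Set 1 had 384 EGFP-high and 1200 EGFP-low basal cells, 222 and 1462 luminal cells and 313 and 709 proximal or urethral luminal cells. Set 2 had 134 and 165 basal cells and 7130 and 247 luminal cells. Its proximal or urethral class had only 22 EGFP-low cells and was not compared.

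**Figure D3:**
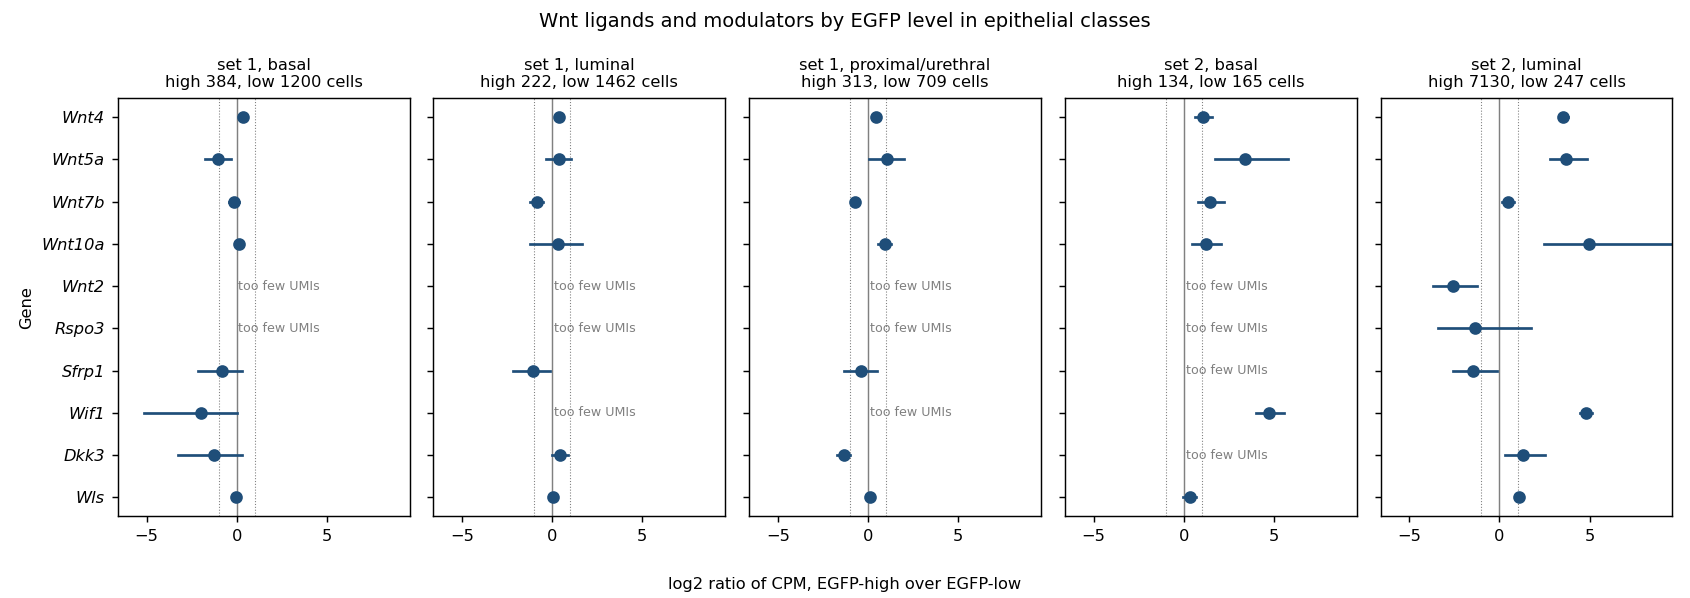
log2 ratio of CPM, EGFP-high over EGFP-low cells, for each member in 5 groups of epithelial cells, with conditional binomial 95% intervals (counting error only) and dotted lines at 2-fold. Members with fewer than 20 UMIs over both sides have no point, and the upper end of the Wnt10a interval in set 2 luminal cells (10.28) lies past the axis. Ratios in set 1 keep within 2-fold for Wnt4, Wnt7b and Wls, whereas in set 2 luminal cells Wnt4, Wnt5a and Wif1 lie between 3.55 and 4.803.

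In set 1 few members were called by EGFP. In basal cells 0 of 8 tested were called higher and 3 lower, against 2.82% and 5.43% of 11366 genes, with a median log2 ratio of -0.48 beside -0.08 for all genes. In luminal cells 0 of 7 were higher and 1 lower (5.64% and 6.13% of genes), with medians of 0.34 and -0.11. In proximal or urethral luminal cells 1 of 7 was higher and 1 lower (4.5% and 5.89% of genes), with medians of 0.11 and -0.13. The members with too few UMIs to be tested were Wnt2 and Rspo3 in all 3 classes and Wif1 in both luminal classes.

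The EGFP-high and EGFP-low cells of set 1 lay in different clusters. Cluster 10 held 76.6% of the EGFP-high and 9.42% of the EGFP-low basal cells, and cluster 3 held 55.0% and 1.09% of the luminal cells. Clusters 3 and 10 held 56.2% and 20.4% of the EGFP-high proximal or urethral luminal cells against 6.06% and 2.26% of the EGFP-low ones. Both clusters stayed without a name, with basal markers scoring highest in cluster 10 and proximal or urethral luminal markers in cluster 3. The ratios over a whole class thus also compare different groups of cells, and the part of each was not tested.

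Over whole classes, Wnt4 was higher in EGFP-high cells of set 1 by less than 2-fold in all 3. The levels were 76.7 against 60.3 CPM in basal cells (log2 ratio 0.35, 0.19 to 0.51), 174 against 132 CPM in luminal cells (0.40, 0.31 to 0.48) and 246 against 184 CPM in proximal or urethral luminal cells (0.42, 0.34 to 0.49). With classes taken from clusters instead of gates, the luminal ratio was -0.01 and the other ratios were 0.79 and 0.58, so the luminal difference rests on which cells are counted as luminal. In the gated cells the highest Wnt4 (209 CPM) and the highest EGFP (4786 CPM) of the luminal clusters were both in cluster 3. Within clusters the direction was not the same throughout. Among basal cells of cluster 10, Wnt4 was 72.2 CPM in 294 EGFP-high and 90.1 CPM in 113 EGFP-low cells (log2 ratio -0.32, -0.61 to -0.02), whereas in cluster 22 it was 108 and 69.2 CPM (0.65, 0.22 to 1.06). Among luminal cells the ratio was -0.08 (-0.30 to 0.13) in cluster 5. In cluster 3 it was -0.13 (-0.40 to 0.15) from 122 and 16 cells. In luminal cluster 4 it was 1.497 (0.957 to 2.01), at 77.4 against 27.4 CPM from 18 and 181 cells. It was 0.152 in luminal cluster 6, -0.253 in cluster 11 and -0.243 in cluster 7, each with an interval that included 0. Among proximal or urethral luminal cells it was -0.27 (-0.43 to -0.12) in cluster 3 and 0.41 (0.26 to 0.56) in cluster 1.

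Wnt7b went the other way in the luminal classes of set 1. It was 9.90 against 18.1 CPM in EGFP-high and EGFP-low luminal cells (log2 ratio -0.87, -1.22 to -0.54) and 24.7 against 40.0 CPM in proximal or urethral luminal cells (-0.70, -0.91 to -0.49), neither past 2-fold. With classes from clusters these became -0.52 and 0.08. Within single luminal clusters the ratio ran from -1.17 (cluster 3) to 0.47 (cluster 5), each with an interval that included 0. Among proximal or urethral luminal cells it was -0.86 (-1.36 to -0.34) in cluster 3. In clusters 1, 10 and 2 of that class it was -0.14, -0.53 and -0.60, each with an interval that included 0. In basal cells the ratio was -0.15, with an interval that included 0.

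Of the called members of set 1, Dkk3 in proximal or urethral luminal cells was the firmest by counts, at 7.26 against 18.6 CPM (log2 ratio -1.36, -1.74 to -0.998) from 73 and 403 UMIs. It kept this direction under each of the other settings tried, at -0.53 when any EGFP UMI made a cell high and -0.59 when ARQ made the split, both under 2-fold. In set 1 the ARQ limit was 0, so any ARQ UMI made a cell high. That gave 628 high proximal or urethral luminal cells, against 313 by EGFP. Within clusters Dkk3 was at -1.26 (-2.43 to -0.27) in cluster 1, -2.46 (-4.10 to -1.22) in cluster 2 and -0.47 (-1.30 to 0.44) in cluster 3. Wnt5a was lower in EGFP-high basal cells (20 and 106 UMIs, log2 ratio -1.01, -1.77 to -0.31) and higher in EGFP-high proximal or urethral luminal cells (1.03, 0.04 to 2.01) from 19 and 20 UMIs, the latter at -0.16 when ARQ made the split. Within basal cluster 0 the Wnt5a ratio was 0.06 (-1.85 to 1.47), from 4 and 76 UMIs. Basal Wif1 and Dkk3 and luminal Sfrp1 were called lower from 2, 4 and 10 UMIs in the EGFP-high cells, at levels of 0.330, 0.660 and 1.22 CPM, and Sfrp1 stood at 0.52 when ARQ made the split. Wnt10a, at 11.7 against 6.20 CPM, was just under the limit in proximal or urethral luminal cells (0.92, 0.55 to 1.29). Of its 118 UMIs in EGFP-high cells of this class, 72 lay in cluster 10. Within clusters 1, 10 and 3 its ratio was -0.54, -0.11 and 0.24, each with an interval that included 0. Axin2 was lower in EGFP-high cells of all 3 classes (log2 ratios -0.67, -0.72 and -0.88).

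In set 2 luminal cells the ratios were far larger. There 6 of the 10 members were called higher and 3 lower in EGFP-high cells, where 15.1% and 19.2% of 13544 genes were called, with a median log2 ratio of 1.19 beside -0.10 for all genes. Wif1 was at 386 against 13.8 CPM (log2 ratio 4.803, 4.46 to 5.16), and 48.5% against 5.11% of thinned cells had a UMI. Wnt4 was at 256 against 21.9 CPM (3.55, 3.28 to 3.83) and Wnt5a at 23.2 against 1.78 CPM (3.70, 2.78 to 4.83). Leukocytes of the same set had 35.9 CPM of Wif1 and 14.04 CPM of Wnt4, so the EGFP-low luminal cells held less Wif1 than the leukocytes did.

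Wnt10a (978 against 1 UMI), Wls (124 against 59.7 CPM, log2 ratio 1.06) and Dkk3 (1.32, 8 UMIs in the EGFP-low cells) were the other members called higher. Wnt7b was 23.5 against 17.0 CPM (0.47, 0.16 to 0.80). Wnt2, Rspo3 and Sfrp1 were called lower from 8, 2 and 7 UMIs in the EGFP-low cells, at 1.58 CPM or less on each side, which is a trace beside their fibroblast levels. Axin2 was higher by a log2 ratio of 3.74.

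The EGFP-low luminal cells of set 2 were a small and particular group. Of the 247 cells, 182 (73.7%) lay in cluster 14 and 49 (19.8%) in cluster 12. Cluster 14 was the luminal cluster highest in Pbsn (7055 CPM), and Pbsn was 6657 CPM in EGFP-low against 151 CPM in EGFP-high luminal cells. The comparison by EGFP in this class is therefore also one between Pbsn-rich luminal cells and the rest, and the part of each was not tested. Inside cluster 14, the 99 EGFP-high and 182 EGFP-low cells had Wif1 at 91.8 and 12.1 CPM and Wnt4 at 64.3 and 17.0 CPM. Inside cluster 12, with 60 and 49 cells, the values were 178 and 3.34 CPM for Wif1 and 154 and 23.4 CPM for Wnt4. The direction was thus the same within each of these clusters as over all luminal cells.

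Without cluster 14, which left 65 EGFP-low cells, the log2 ratios were 4.23 for Wif1, 2.64 for Wnt4, 2.98 for Wnt5a, 2.67 for Wnt10a and 2.12 for Wls, while Dkk3 was at 0.02 and Wnt7b at -0.18. The ratios depended strongly on where EGFP-low ended. At the 99th percentile of leukocytes (68.1 per 10000 UMIs, 1429 EGFP-low cells) they were 0.54 for Wif1, 0.22 for Wnt4, 0.13 for Wnt5a, 0.15 for Wnt10a and 0.06 for Wls, and 0 members were called higher. Splitting by ARQ, with 570 low cells, gave 1.40, 0.74, 0.85, 1.05 and 0.42. With both the classes and the leukocytes that set the limit taken from clusters (2326 EGFP-low cells) they were 0.18, 0.030, -0.030, -0.39 and -0.068. The large differences were therefore between luminal cells with EGFP at the leukocyte level and all others.

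Among luminal cells above the limit, Wnt4, Wnt5a, Wif1 and Wls differed by less than 2-fold across EGFP levels. In EGFP-high cells split by EGFP into a lower, a middle and an upper bin of 2377, 2376 and 2377 cells, Wnt4 was 269.9, 256 and 241 CPM and Wif1 was 377, 428 and 344 CPM. Wnt5a was 25.0, 24.5 and 19.4 CPM and Wls was 136, 133 and 100.1 CPM. In none of these 4 was the highest EGFP level joined to the highest member level. The bins of Wnt7b and Wnt10a are given only in the figure that follows.

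**Figure D4:**
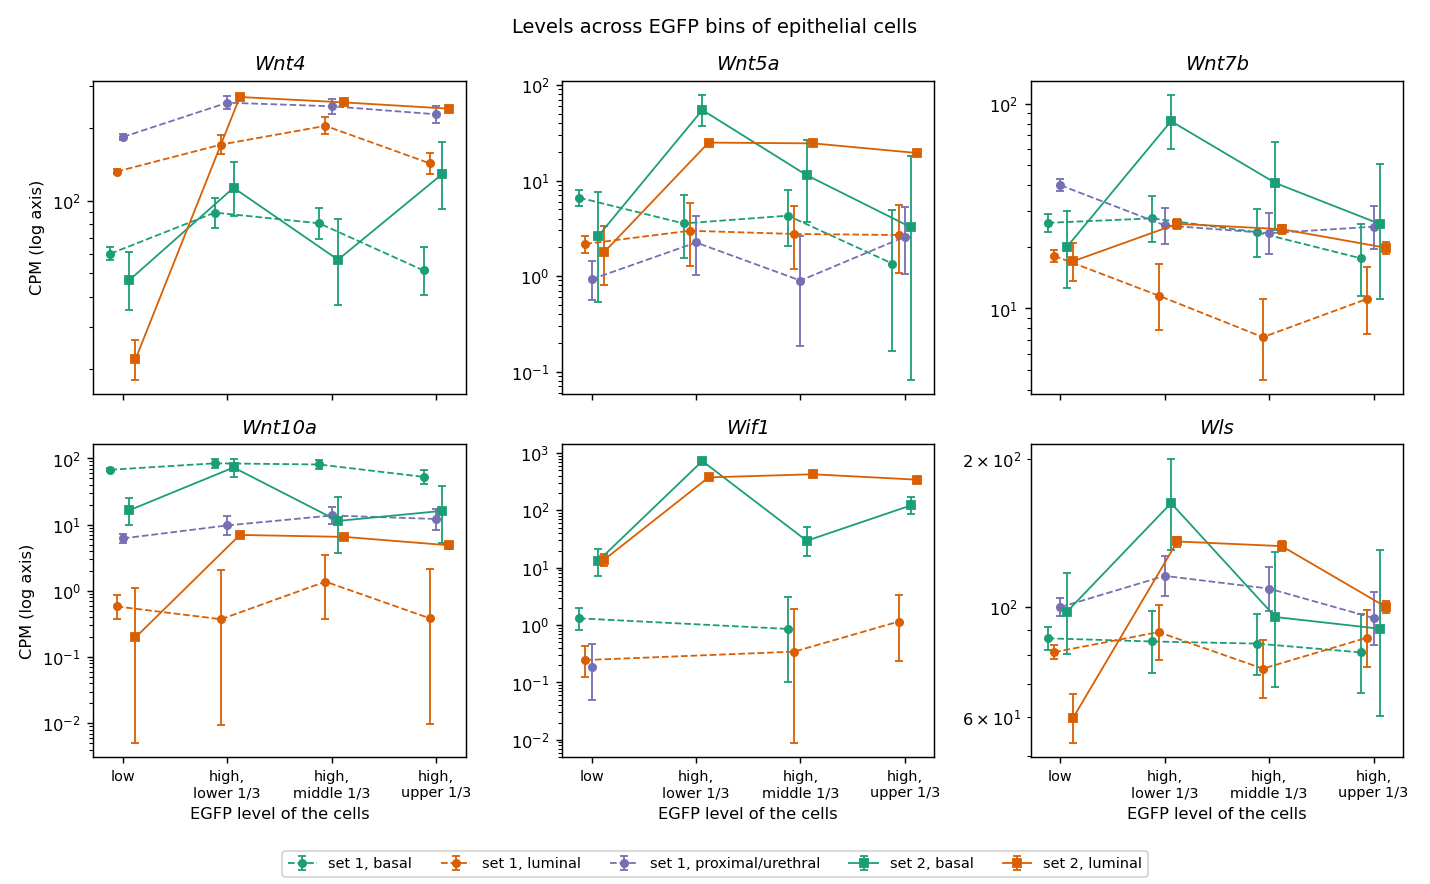
Log-axis CPM of 6 members in EGFP-low cells and in EGFP-high cells split into 3 bins of equal size by EGFP, for 5 groups of epithelial cells, with exact Poisson 95% intervals. Bins with 0 UMIs are not drawn. In set 2 luminal cells the step lies between the low bin and the first high bin (Wnt4 21.9 to 269.9 CPM, Wif1 13.8 to 377 CPM), and in set 2 basal cells the first high bin stands out (Wif1 727 CPM).

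Basal cells of set 2 gave 5 of 6 members tested higher and 0 lower in EGFP-high cells, against 6.14% and 1.72% of 7281 genes, with a median of 1.34 beside 0.07 for all genes. Wnt4 was at 98.0 against 46.8 CPM (log2 ratio 1.07, 0.60 to 1.55), Wnt7b at 54.8 against 19.9 CPM (1.46, 0.76 to 2.21) and Wnt10a at 38.6 against 16.5 CPM (1.23, 0.44 to 2.07). Wnt5a had 36 and 3 UMIs (3.42) and Wif1 449 and 15 UMIs (4.74). Only Wls (0.33, -0.03 to 0.69) was not called among those tested. Wnt2, Rspo3, Sfrp1 and Dkk3 had too few UMIs.

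A few cells carried the Wif1 value. The 8 cells with most Wif1 held 91.3% of the 449 UMIs, and the 8 with most of each held 80.6% of the Wnt5a UMIs and 76.0% of the Wnt10a UMIs. Of the 134 EGFP-high basal cells, 8 fell in luminal cluster 4 with Wif1 at 2843 CPM, while 125 fell in basal cluster 16 with 40.8 CPM. The 162 EGFP-low cells of cluster 16 had 13.3 CPM. With cells kept only when gate and cluster name were the same, the log2 ratios were 1.62 for Wif1, 2.00 for Wnt5a, 1.06 for Wnt7b, 0.89 for Wnt4, -0.00 for Wnt10a and 0.11 for Wls. At the 99th percentile limit, 0 of the members were called higher, and Wif1 stood at -0.10.

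Luminal cells of set 2 were not uniform in the members. Their 15 clusters ran from 45.2 to 722 CPM for Wif1 (median 314), from 36.7 to 345 CPM for Wnt4, from 3.03 to 48.1 CPM for Wnt5a and from 49.0 to 260.1 CPM for Wls. Wnt7b ranged from 13.5 to 58.5 CPM and Wnt10a from 0.577 to 18.0 CPM. Clusters 4, 5 and 6 had the 3 highest levels of Wnt5a (36.7, 48.1 and 38.0 CPM) and of Wls (220, 260.1 and 199.5 CPM). Cluster 14, rich in Pbsn, was lowest in Wif1, Wnt4, Wnt5a and Wnt10a.

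**Figure D5:**
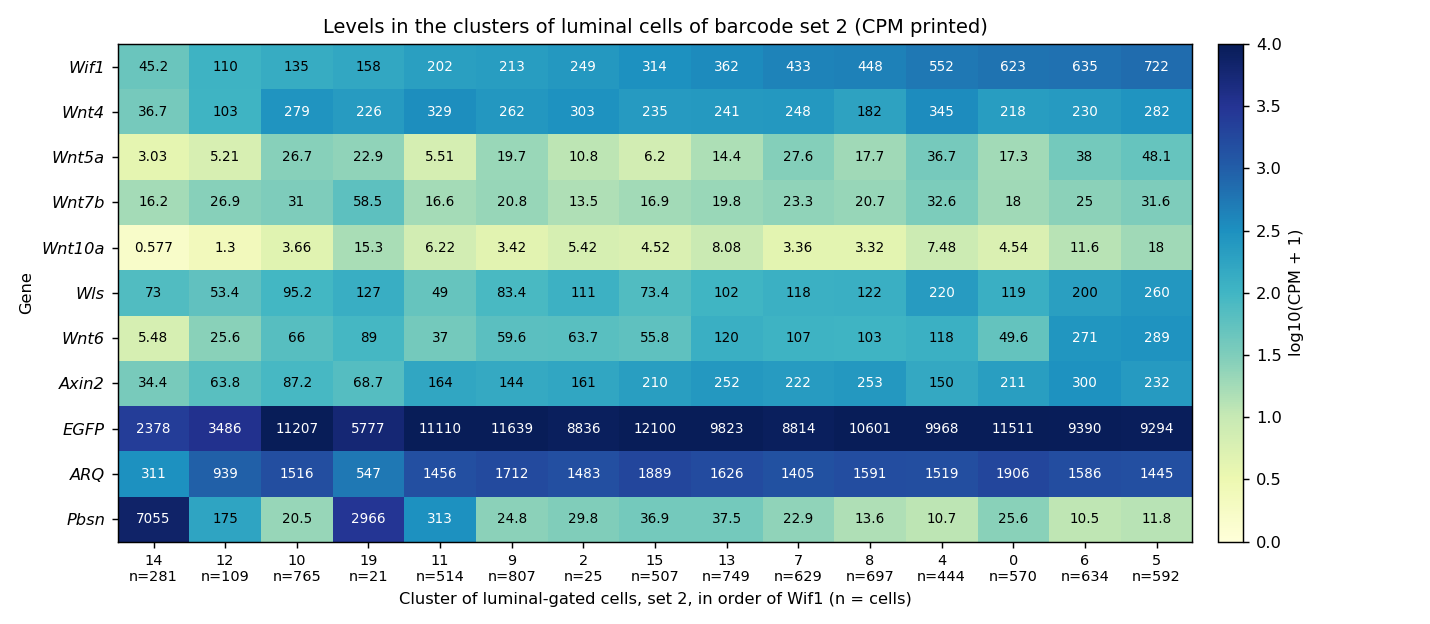
Levels of 6 members and of Wnt6, Axin2, EGFP, ARQ and Pbsn (rows) in the 15 clusters of luminal-gated cells of set 2, in order of Wif1 (columns, with the number of cells). Colour is log10(CPM + 1) and the printed values are CPM. Wif1 rises from 45.2 CPM in cluster 14 to 722 CPM in cluster 5, and Axin2 is low (34.4 and 63.8 CPM) in the 2 clusters lowest in Wif1.

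Over these 15 clusters, all of 1 library, log2(CPM + 10) of Wif1 went with that of Axin2 (Pearson r = 0.90), Wnt5a with Wls (r = 0.88) and Wnt4 with EGFP (r = 0.87). Wif1 and Wnt7b did not go together (r = 0.03). These are descriptions of clusters that share a library and free RNA, and the clusters were not independent samples. Clusters 14 and 12, lowest in EGFP at 2378 and 3486 CPM, lie at the low end of Wif1, Wnt4 and Axin2 alike.

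Among other pathway genes, 46 of a list of 51 were in the table. At 5 CPM or more stood 27 of the 46 in fibroblasts of each set, against 15, 10 and 10 in basal, luminal and proximal or urethral luminal cells of set 1 and 18, 15 and 19 in those of set 2. Leukocytes had 6 and 5. Of all 19320 features, 48.7% and 48.5% were at that level in fibroblasts, 42.6%, 45.7% and 45.2% in the 3 epithelial classes of set 1, 43.0%, 44.0% and 46.9% in those of set 2, and 47.4% and 43.9% in leukocytes. The 27 genes of fibroblasts held 6 antagonists and 12 receptors in each set.

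The highest other ligands were Wnt11, at 141 CPM (122 to 162) in fibroblasts of set 1 and 70.3 CPM (57.2 to 85.6) in those of set 2, and Wnt6, at 104 CPM (103 to 106) in luminal cells of set 2 against 0.0189 CPM (1 UMI) in those of set 1. Wnt6, like Wif1, was almost unseen in luminal cells of set 1. The highest other antagonists were Sfrp2 (453 and 230 CPM) and Sfrp4 (28.5 and 293 CPM), both in fibroblasts. The receptor Fzd1 was highest in fibroblasts (126 and 151 CPM) and Fzd4 in endothelium (112 and 143 CPM).

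Notum, which removes the lipid from Wnts and is itself a target of the pathway, was 108 and 104 CPM in fibroblasts and 1.17 and 87.9 CPM in luminal cells. The R-spondin receptor Lgr4 was 35.5 and 2.95 CPM in luminal cells, and its relative Lgr5 0.926 and 28.9 CPM. The E3 ligases Znrf3 and Rnf43 were at 96.5 and 27.4 CPM in luminal cells of set 2 against 10.98 and 2.29 CPM in those of set 1. Rspo3, the R-spondin among the members, was at 0.160 CPM in luminal cells of set 2. The values of Notum, Znrf3, Rnf43, Lgr4 and Lgr5 were chosen for the text after they were seen.

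Across the 11 units of 1 class in 1 set with enough cells, the genes most like each member were found by Pearson r of log2(CPM + 10) among 9279 genes. Wif1 and Wnt5a were both most like Notum (r = 0.95 for each), with Nkd2 and Clmp next for Wif1 and Dnajb4 and Tnfrsf19 next for Wnt5a. Wnt4 was most like Nipal2, Cdo1 and Rab15 (0.95 to 0.97), Wnt7b like Abcd3, Sh2d4a and Sall3 (0.96 to 0.97) and Wnt10a like Glis3, Auts2 and Gm16685 (0.93 to 0.96). Wls was most like Ralgps2, Dnajb1 and Ahcyl1 (0.92 to 0.95).

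The stromal members followed fibroblast genes, and only 2 of the 11 units were fibroblasts. Wnt2 was most like Pdgfra, a gate marker, Ctsk and Adamts8, Rspo3 like Tspan11, Syt13 and Ptgis, and Sfrp1 like Cilp, 1500015O10Rik and Abca8a, all with r of 0.999. With a pseudocount of 1 in place of 10, between 1 and 3 of the 3 genes found for each member were kept. The likeness is a description over units that share libraries.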

How the data were processed

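Single-cell RNA of 2 libraries, 1 per group, was measured. UMIs were counted by the authors, per the labels and their methods, with Cell Ranger 3.1.0 on mm10 with the hARtg and mGFP sequences added, removed empty droplets, multiplets and cells high in mitochondrial RNA, and deposited 1 table of natural log (ln) values, ln(1 + 10000 × UMIs of the gene / UMIs of the cell), of 19320 features in 15742 cells. Back-transformed values were whole UMIs in 100% of entries (tolerance 0.001). Depth was 134850345 UMIs in set 1 and 187280119 in set 2. Endings of barcodes were not mapped to PIN or PCa, so no comparison between these was made.

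Doublets were called per set with Scrublet (expected 6%, score limit 0.25). Cells were gated by mean scaled scores of fixed markers (scaled at the 99th percentile, at least 3 markers detected, margin 0.05). As an alternative, cells were clustered within each set (Leiden, resolution 1, 2000 features, 20 dimensions, 15 neighbours), with the members, other pathway genes, EGFP, ARQ and Axin2 kept out, and clusters were named by the same markers. CPM carried exact Poisson intervals, shares of cells thinned to 3000 UMIs exact binomial (Clopper-Pearson) intervals, and ratios conditional binomial intervals, all at 95%. A ratio was called at a fold of 2 with 20 or more UMIs over both sides and 50 or more cells per side. Against 0 UMIs the floor was 3 UMIs. On counts simulated as Poisson, without further spread between cells, 95.6% of intervals covered the known ratio (12896 genes, luminal cells of set 1). The intervals assume such counts, so this checks the calculation only and cannot show coverage where a few cells hold most UMIs.

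Alternatives were classes from clusters, doublets kept, cells weighing the same, the 50 most abundant genes removed, other EGFP limits, a split by ARQ, and other minima. The ARQ limit, set as for EGFP, was 0 per 10000 UMIs in set 1 and 4.02 in set 2. A further 3 were added after the data were seen: gate and cluster name the same, no luminal cluster 14, and classes and EGFP limit from clusters. Ratios by EGFP within single clusters (10 or more cells per side) were also added then. The members and lists were chosen with earlier results of these data known. Named were the members, Wnt11, Wnt6, Sfrp2, Sfrp4, Fzd1, Fzd4, the 3 genes most like each member (for Dkk3 not reported here), EGFP, ARQ and Axin2; others were named after their values were seen. Python 3.11.15, scanpy 1.11.5, numpy 2.4.6 and scipy 1.17.1 were used.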

Additional observations from a re-analysis of the deposited data

Results flagged for a closer look

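The log2 ratio of EGFP-high over EGFP-low cells had opposite signs in the 2 sets for a pair of members, with intervals that did not include 0. Wnt5a in basal cells was at -1.01 in set 1 and 3.42 in set 2, where 8 cells held 80.6% of its UMIs in the EGFP-high cells. Within basal cluster 0 of set 1 its ratio was 0.06 (-1.85 to 1.47), from 4 and 76 UMIs. Wnt7b in luminal cells was at -0.87 in set 1 and 0.47 in set 2, the latter at -0.18 without luminal cluster 14. Within single luminal clusters of set 1 its ratio ran from -1.17 to 0.47, each with an interval that included 0. The difference between the sets was not tested.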

How the results depend on the processing

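Of 164 counts recomputed under an alternative, 124 stayed within 1.5 times of the reported count and 40 did not. Of 1064 other values, 696 stayed within their counting interval, 349 moved further and 19 changed sign after being called. The cause was not tested.

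By EGFP in set 1, the 3 basal members called lower became 1 when any EGFP UMI made a cell high, and 0 with classes from clusters, with gate and cluster name the same, and with classes and EGFP limit from clusters. The count of luminal members called higher, 0, became 1, 2 and 1 under those last alternatives, and the 1 called lower became 0 under them, with any EGFP UMI, after thinning and by ARQ. The 1 proximal member called higher became 0 with any EGFP UMI, after thinning, by ARQ and with gate and cluster name the same, and 2 with each cell weighing the same, and the 1 called lower became 0 with any EGFP UMI and by ARQ. In set 2, the 5 basal members called higher became 0 at the 99th percentile, 2 by ARQ, 1 with classes from clusters, 2 with gate and cluster name the same and 1 with classes and limit from clusters, and the 0 called lower became 1 with no minimum of UMIs. The 6 luminal members called higher became 0 at the 99th percentile, 2 by ARQ and 0 with classes and limit from clusters, and the 3 called lower became 1 after thinning and with classes and limit from clusters.

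Between the sets, members called higher went from 2 to 1 in basal cells and from 5 to 3 in luminal cells (3 also with doublets kept), and those called lower from 1 to 2 in proximal and from 1 to 0 in leukocyte cells, with classes from clusters. Pathway genes present went from 6 to 3 (leukocytes, set 1), 18 to 9 (endothelium, set 2) and 5 to 1 (leukocytes, set 2) at 10 CPM, and from 5 to 13 in the last with classes from clusters.

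Called log2 ratios that changed sign by EGFP in set 1 were luminal Sfrp1, 0.30 with any EGFP UMI and 0.52 by ARQ, and proximal Wnt5a, -0.045 and -0.16. In basal cells of set 2 they were Wif1 at -0.10 (99th percentile), Wnt7b at -0.50 (ARQ) and Wnt10a at -0.27 (clusters), -0.0011 (gate and cluster name the same) and -0.66 (classes and limit from clusters). In luminal cells of set 2 they were Dkk3 at -0.42 (99th percentile), -0.12 (ARQ) and -0.55 (classes and limit from clusters), and under the last also Wnt5a at -0.030, Wnt10a at -0.39, Sfrp1 at 0.48 and Wls at -0.068. Between the sets they were basal Wnt5a at -0.13 and luminal Rspo3 at -0.43 (clusters) and -0.45 (doublets kept).

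Without the 50 most abundant genes the median log2 ratio of all genes moved by over 0.1 by EGFP in luminal cells of set 2 (-0.10 to 0.07) and between the sets in luminal cells (-0.20 to -0.06), and no member changed sign. With classes from clusters set 1 had no named fibroblasts, so its fibroblast values were not recomputed. In set 2, splits by any EGFP UMI (18 basal and 17 luminal low cells) and, for basal cells, after thinning (49 low cells) left too few cells. No paired analysis was possible because PIN and PCa were 1 library apiece. The depth limits most the members at a few UMIs: Wnt2, Rspo3 and Sfrp1 in epithelium and Wif1 in epithelium of set 1.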
